A study of Mus musculus with 22 samples.

Results

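The suppressors of cytokine signalling (SOCS) are described here through 4 of their genes, Socs1, Socs2, Socs3 and Cish, in gamma-delta thymocytes sorted by gamma-chain subset and by stage. Each gene was represented by a probe set that lists its symbol alone, and by the one of highest mean where there was more than 1. These 4 genes are among 14860 genes that the arrays measure with such probe sets, of which 8545 passed a filter on low values and were tested. All 4 members passed.

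SOCS proteins are feedback inhibitors of the JAK-STAT pathway, through which many cytokine receptors signal. A bound receptor activates Janus kinases, these phosphorylate STAT transcription factors, and STAT dimers switch on target genes that include the SOCS genes themselves. The SOCS proteins then block the kinases, occupy receptor docking sites or, through their SOCS box, bring in a ubiquitin ligase. Cish and Socs2 are known as targets of STAT5, Socs3 as a target of STAT3 and Socs1 as a target of interferon signalling.

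All cells came from the thymus of female C57BL/6 mice aged 8 weeks, with no treatment. They were sorted as Vgamma1.1+ or Vgamma2+, after the variable segment of the gamma chain that they carry, and by CD24, a surface protein of immature thymocytes, and CD73, an ectoenzyme found on gamma-delta thymocytes later in their development. The 3 stages are taken as CD24+CD73- first, CD24+CD73+ next and CD24-CD73+ last. Vgamma1.1+ cells had 4, 3 and 4 arrays at these stages, and Vgamma2+ cells had 3, 4 and 4. Here the CD73 gain step is CD24+CD73+ minus CD24+CD73- cells, the CD24 loss step is CD24-CD73+ minus CD24+CD73+ cells, and the whole course is CD24-CD73+ minus CD24+CD73- cells of the same subset. These steps share arrays with each other and with the comparisons between subsets. The study asks where in development the gamma-chain subsets part. Replicates are biological by their labels, which do not say if each came from its own animals; p-values therefore measure only how these samples vary, and the number of arrays limits the precision.

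Every value is a deposited log2 expression level or a difference of such levels, and levels of different genes are not set against each other. Array medians lay between 4.43 and 4.76, and no pair of arrays was identical. The SD of an array's log2 values ran from 1.61 to 2.09, and the Vgamma1.1+ CD24-CD73+ replicate 1 array (1.61) and the Vgamma2+ CD24+CD73+ replicate 3 array (1.71) had the narrowest spread. Nt5e, which encodes CD73, followed the sort. Its mean level was 3.75, 8.05 and 8.33 at the 3 stages of Vgamma1.1+ cells and 3.42, 7.22 and 7.33 at those of Vgamma2+ cells. The gene that encodes CD24 was not analysed here.

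STAT dimers bind the palindrome TTCNNNGAA, known as a GAS element, and interferon regulatory factors bind repeats in which GAAA recurs after any 2 bases, so the promoters of the members were searched for both. Promoters from RefSeq (mouse build GRCm38.p6, 250 bases before to 50 after the gene's start) were at hand for 3 of the 4 members, Cish, Socs3 and Socs1. Both strands were searched: the GAS motif reads the same on both, and on the other strand the repeat of the second motif reads TTTC. The windows below are the stretches of 30 bases that hold the matches, shown 5′ to 3′ on the gene's strand with the matched bases in capitals.
Cish: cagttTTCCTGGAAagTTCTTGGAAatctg
Socs3: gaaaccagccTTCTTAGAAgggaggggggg
Socs1: cttgccgGAAAGAGAAACCGAAAgcggggg
The Cish window lies at chr9:107296654-107296683 on the plus strand, from base -5 to base 25 around the gene's start. It holds 2 GAS matches in tandem. The Socs3 window lies at chr11:117969501-117969530 on the minus strand, from base -164 to base -135, and holds 1 GAS match. The Socs1 window lies at chr16:10785597-10785626 on the minus strand, from base -90 to base -61, and holds 2 overlapping matches to the second motif. Of 32851 mouse promoters of this length, 8.3% held at least 1 GAS match and 0.457% at least 2. For the second motif the shares were 3.44% for at least 1 match and 0.225% for at least 2. No GAS match was found in the Socs1 window of 300 bases and no match to the second motif in those of Cish and Socs3. A match describes the letters only and says nothing about binding.

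Among the members, Socs2, Socs3 and Cish were higher in CD24-CD73+ Vgamma2+ cells than in each of the other 5 groups, while Socs1 passed the test in none of these 5 comparisons. For Socs3, leaving out 1 array could end the call against CD24-CD73+ Vgamma1.1+ cells (adjusted p up to 0.0639) and against CD24+CD73- Vgamma2+ cells (up to 0.121). Socs2 had the widest differences of the 4, with a difference of 3.61 on the log2 scale at the CD24 loss step of Vgamma2+ cells and of -2.90 between Vgamma1.1+ and Vgamma2+ cells at CD24-CD73+. In the groups it was set against, Socs2 lay under the median of the table and was not shown to be above background, so these sizes are those of the deposited values only. Cish is the one member that also passed at the earlier step, with an increase at the CD73 gain step of both subsets. Socs2 and Socs3 lay under the table's median in the groups of that step, where a change could be missed. The test was limma's moderated test with Benjamini-Hochberg adjustment over the 8545 genes. An F test for any difference among the 6 groups called 37.9% of all tested genes. Of the members, this F test called Socs2 (adjusted p = 4.22e-07), Cish (adjusted p = 6.42e-07) and Socs3 (adjusted p = 0.0031) but not Socs1 (adjusted p = 0.377). Socs2 and Socs3 entered the tests through CD24-CD73+ Vgamma2+ cells alone, so the filter itself favoured a difference. Their calls therefore add nothing to the levels. Bulk RNA cannot tell a change in the number of cells that carry a transcript from a change in the amount per cell.

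**Figure D1:**
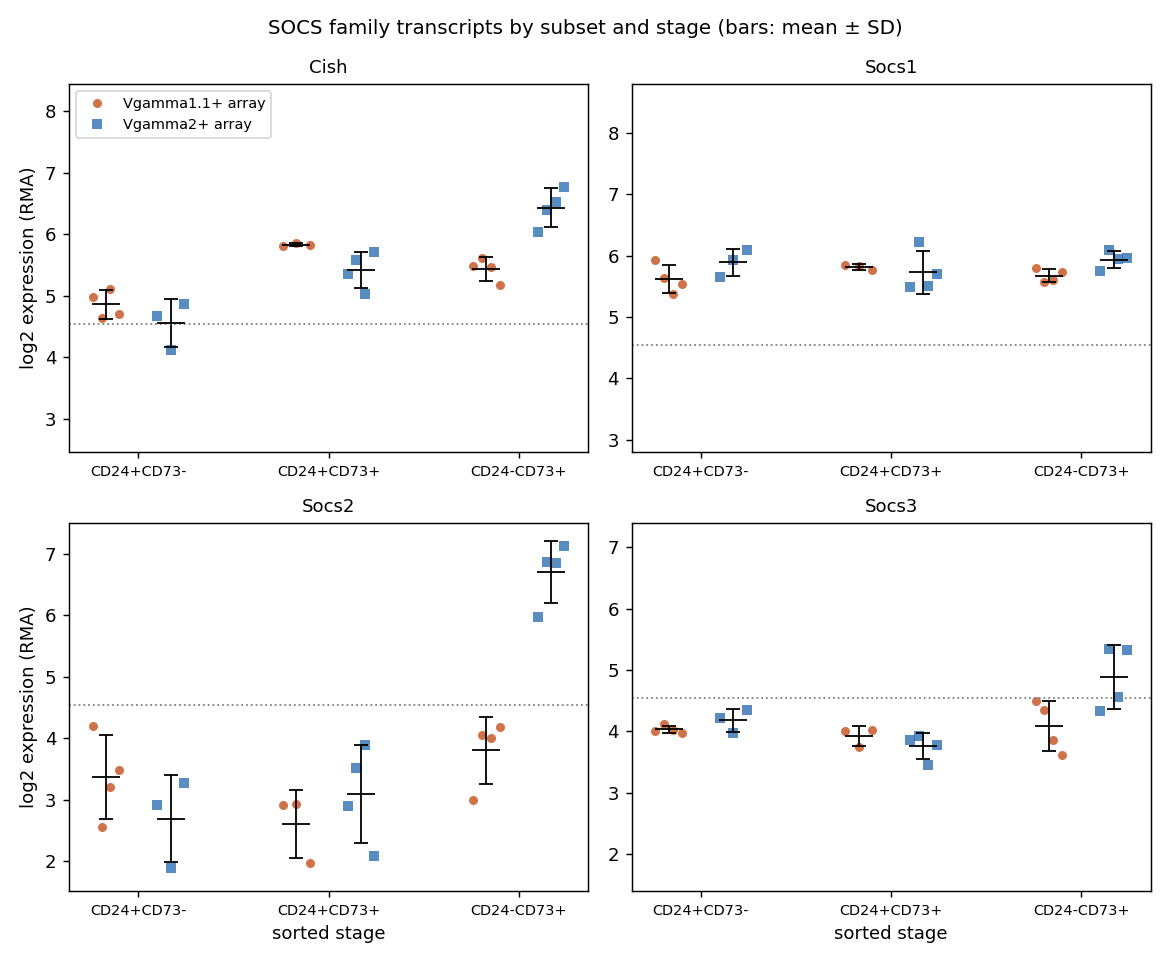
Log2 expression level (RMA, vertical axes) of Cish, Socs1, Socs2 and Socs3 on each of the 22 arrays by sorted stage, with Vgamma1.1+ arrays as circles and Vgamma2+ arrays as squares; bars are mean ± SD and the dotted line is the median of the whole table (4.55). The axes cover the same span in each panel but start at different levels. The CD24-CD73+ Vgamma2+ arrays stand above all others for Socs2 (5.98 to 7.12) and Cish (6.03 to 6.78). How many of all tested genes show such a gap was not counted.

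Socs2, best known for restraining growth hormone signalling and known as a STAT5 target, changed most. In Vgamma1.1+ cells its log2 levels were 4.21, 2.56, 3.21 and 3.49 at CD24+CD73-, then 2.92, 2.93 and 1.97 at CD24+CD73+, and 2.99, 4.05, 4.00 and 4.18 at CD24-CD73+. In Vgamma2+ cells they were 2.92, 1.90 and 3.27 at CD24+CD73-, then 2.90, 3.52, 3.90 and 2.08 at CD24+CD73+, and 5.98, 6.87, 6.86 and 7.12 at CD24-CD73+. The 4 CD24-CD73+ Vgamma2+ arrays are high and do not overlap the other 18 arrays, which ran from 1.90 to 4.21 with a median of 3.10. The share of all tested genes with such a gap was not counted. These 4 arrays were the only ones above the median of the table (4.55), so Socs2 entered the tests through the group where it is high and had to differ; its call adds nothing to the levels themselves.

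At the CD24 loss step of Vgamma2+ cells the mean Socs2 level was 6.71 ± 0.50 in CD24-CD73+ cells and 3.10 ± 0.79 in CD24+CD73+ cells (SD, n = 4 each). This is a log2 difference of 3.61 ± 0.41 (SE; limma adjusted p = 7.95e-07). Over the whole course of Vgamma2+ cells the difference was 4.01 ± 0.44 (adjusted p = 4.55e-07). In Vgamma1.1+ cells the mean was 3.80 ± 0.55 (SD, n = 4) in CD24-CD73+ cells and 2.61 ± 0.55 (SD, n = 3) in CD24+CD73+ cells. That CD24 loss step of 1.20 ± 0.44 (SE) did not pass (limma adjusted p = 0.0862), and it passed without both narrow arrays named above (1.47, adjusted p = 0.0238). The step differed between the subsets by -2.41 ± 0.60, Vgamma1.1+ minus Vgamma2+ (adjusted p = 0.0203). That call was lost without Vgamma1.1+ CD24+CD73+ replicate 1 (adjusted p = 0.0708) or replicate 2 (adjusted p = 0.0638). Between the subsets at CD24-CD73+, the difference was -2.90 ± 0.41 (adjusted p = 3.07e-05). The 5 groups other than CD24-CD73+ Vgamma2+ cells followed each other with no neighbouring pair past the test; their means lay between 2.61 and 3.80.

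Cish, the founding family member and a STAT5 target that acts at cytokine receptors and at the T-cell receptor, passed at both steps in Vgamma2+ cells and at the CD73 gain step in Vgamma1.1+ cells. In Vgamma1.1+ cells its log2 levels were 4.98, 4.63, 5.11 and 4.70 at CD24+CD73-, then 5.81, 5.85 and 5.82 at CD24+CD73+, and 5.48, 5.62, 5.46 and 5.17 at CD24-CD73+. In Vgamma2+ cells they were 4.67, 4.12 and 4.87 at CD24+CD73-, then 5.35, 5.58, 5.03 and 5.71 at CD24+CD73+, and 6.03, 6.39, 6.53 and 6.78 at CD24-CD73+. The arrays of successive stages do not overlap within Vgamma2+ cells, each stage lying above the one before. Within Vgamma1.1+ cells both CD73+ stages lie above the CD24+CD73- arrays, and the CD24-CD73+ arrays lie below the CD24+CD73+ arrays. The share of all tested genes whose stages separate in this way was not counted. Cish was above the median of the table on 21 of 22 arrays, so its passing the filter did not rest on 1 group.

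At the CD73 gain step, Cish rose by 0.97 ± 0.19 on the log2 scale in Vgamma1.1+ cells (SE; limma adjusted p = 0.00193) and by 0.86 ± 0.19 in Vgamma2+ cells (adjusted p = 0.0043). The Vgamma2+ call was lost without Vgamma2+ CD24+CD73- replicate 2 (adjusted p = 0.0511). Markers of other cells moved at the same step, where 4.37% of all tested genes rose and 3.45% fell in Vgamma1.1+ cells. For Vgamma2+ cells these shares were 5.82% and 6.41%. In Vgamma1.1+ cells 2 of 3 tested genes of the alpha-beta lineage fell, Cd8b1 by 2.29 and Cd8a by 1.63 on the log2 scale, and the mean level of 5 such genes was 3.60 to 3.90 at CD24+CD73+ and 4.30 to 5.83 at CD24+CD73-. In Vgamma2+ cells Cd8b1 fell by 0.93, and 3 of 4 tested myeloid and dendritic genes rose, C1qb by 0.98, H2-Aa by 0.83 and Cd68 by 0.58. The mean level of 6 myeloid and dendritic genes was 4.24 to 4.59 at CD24+CD73+ and 3.90 to 3.94 at CD24+CD73- in Vgamma2+ cells, and 3.68 to 3.94 at CD24+CD73+ and 4.03 to 4.26 at CD24+CD73- in Vgamma1.1+ cells. Their part in the Cish rise was not tested.

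The gains of Cish differed by 0.11 ± 0.27, Vgamma1.1+ minus Vgamma2+, with a 95% interval from -0.46 to 0.68 (adjusted p = 0.904). The subsets differed at the CD24 loss step. The mean was 5.43 ± 0.19 (SD, n = 4) in CD24-CD73+ Vgamma1.1+ cells, against 5.83 ± 0.02 (SD, n = 3) at CD24+CD73+, a difference of -0.40 ± 0.19 (SE) that did not pass (limma adjusted p = 0.205). In Vgamma2+ cells the mean was 6.43 ± 0.31 at CD24-CD73+ and 5.42 ± 0.30 at CD24+CD73+ (SD, n = 4 each), a rise of 1.02 ± 0.18 (SE; limma adjusted p = 0.000215). The CD24 loss steps differed by -1.41 ± 0.26 (adjusted p = 0.00193) and the whole courses by -1.30 ± 0.26 (adjusted p = 0.00436), Vgamma1.1+ minus Vgamma2+.

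Over the whole course, Cish rose by 0.58 ± 0.18 in Vgamma1.1+ cells (limma adjusted p = 0.0218) and by 1.88 ± 0.19 in Vgamma2+ cells (adjusted p = 1.85e-07). The Vgamma1.1+ call was lost without any of 3 arrays: CD24+CD73- replicate 2 (adjusted p = 0.0773), CD24+CD73- replicate 4 (adjusted p = 0.0637) or CD24-CD73+ replicate 2 (adjusted p = 0.0632). Between the subsets at CD24-CD73+, Cish was lower in Vgamma1.1+ cells, with a difference of -1.001 ± 0.18 (adjusted p = 0.000456). In the order of its 6 group means, 3 neighbouring pairs did not pass. The pairs were picked by these same values, so only the lack of a call between neighbours is stated.

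Socs3, an inhibitor of signalling through the gp130 receptor chain and of STAT3, was measured by 2 probe sets that agree in direction and differ in size. The probe set of higher mean gave log2 levels of 4.01, 4.12, 4.03 and 3.97 at CD24+CD73-, then 4.01, 3.74 and 4.03 at CD24+CD73+, and 4.50, 4.35, 3.87 and 3.62 at CD24-CD73+ in Vgamma1.1+ cells. In Vgamma2+ cells it gave 4.22, 3.97 and 4.35 at CD24+CD73-, then 3.87, 3.93, 3.46 and 3.79 at CD24+CD73+, and 4.32, 5.33, 4.55 and 5.32 at CD24-CD73+. The CD24-CD73+ Vgamma2+ arrays, from 4.32 to 5.33, overlap the other 18, which ran from 3.46 to 4.50. Values above the table's median (4.548) occurred on 3 arrays, all of that group, and the lowest of the 3 was 4.554. Socs3 too thus entered the tests, by a small margin, through the group where it is high. The filter itself favoured a difference, so the calls of Socs3 add nothing to the levels.

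By this probe set Socs3 rose by 1.12 ± 0.21 on the log2 scale at the CD24 loss step of Vgamma2+ cells (SE; limma adjusted p = 0.000386). At the same step of Vgamma1.1+ cells the difference was 0.16 ± 0.22 (adjusted p = 0.692). The difference between these steps, -0.96 ± 0.31, did not pass (adjusted p = 0.0752), but it passed without Vgamma1.1+ CD24-CD73+ replicate 1 (adjusted p = 0.0339) or Vgamma2+ CD24-CD73+ replicate 1 (adjusted p = 0.0183). Between the subsets at CD24-CD73+ the mean was 4.08 ± 0.41 in Vgamma1.1+ and 4.88 ± 0.52 in Vgamma2+ cells (SD, n = 4 each), a difference of -0.80 ± 0.21 (SE; limma adjusted p = 0.0133). The call was lost when only the arrays of these groups were fitted (adjusted p = 0.151) and without Vgamma1.1+ replicate 4 (adjusted p = 0.0635), Vgamma2+ replicate 2 (adjusted p = 0.0618) or Vgamma2+ replicate 4 (adjusted p = 0.0639) of this stage.

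The other Socs3 probe set showed a wider gap. It gave 5.09, 6.77, 6.72 and 6.18 in CD24-CD73+ Vgamma2+ cells, with means between 3.30 and 4.05 in the other 5 groups. Its rise at the CD24 loss step of Vgamma2+ cells was 2.89 ± 0.26 (limma adjusted p = 3.14e-08), and its difference between the subsets at CD24-CD73+ was -2.38 ± 0.26 (adjusted p = 1.02e-06). By this probe set the CD24 loss steps differed by -2.56 ± 0.38 (adjusted p = 0.000192). It too exceeded the table's median on the 4 CD24-CD73+ Vgamma2+ arrays alone. The gene entered the tests through that same group, so these calls add nothing to the levels.

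**Figure D2:**
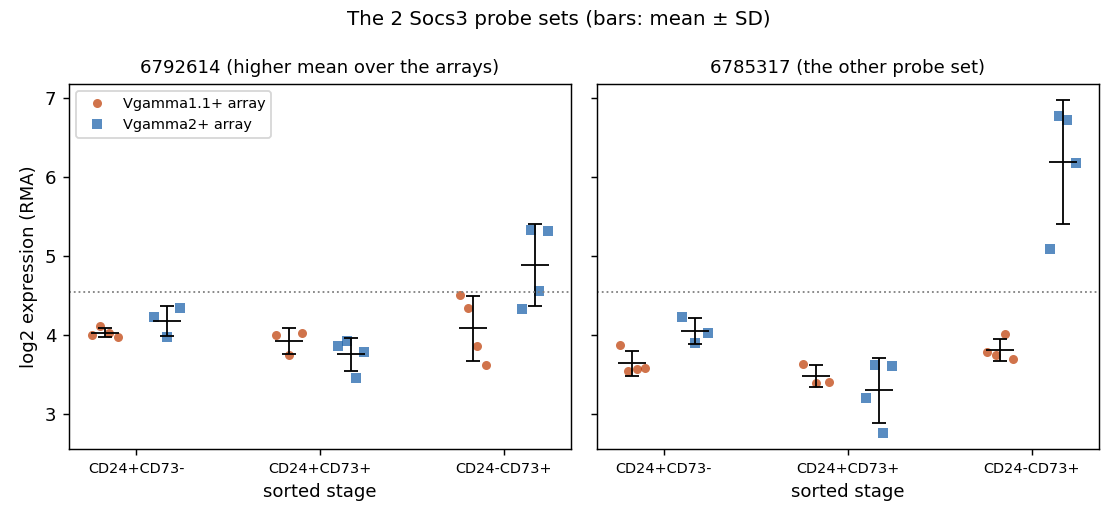
Log2 expression level (vertical axis) of the 2 Socs3 probe sets on each of the 22 arrays by sorted stage, with Vgamma1.1+ arrays as circles and Vgamma2+ arrays as squares; bars are mean ± SD and the dotted line is the median of the table (4.55). Both are highest on average in CD24-CD73+ Vgamma2+ cells, with a wider gap for the probe set whose arrays reach 6.77 than for the one that reaches 5.33.

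Socs1, the inhibitor of interferon and common gamma-chain cytokine signalling that binds Janus kinases directly, was above the median of the table on all 22 arrays and passed in no comparison. Its log2 levels in Vgamma1.1+ cells were 5.93, 5.63, 5.37 and 5.54 at CD24+CD73-, then 5.85, 5.83 and 5.77 at CD24+CD73+, and 5.80, 5.57, 5.60 and 5.74 at CD24-CD73+. In Vgamma2+ cells they were 5.66, 5.93 and 6.09 at CD24+CD73-, then 5.48, 6.22, 5.51 and 5.69 at CD24+CD73+, and 5.74, 6.09, 5.94 and 5.96 at CD24-CD73+. All 6 groups overlap in the range from 5.37 to 6.22, and no neighbouring pair in the order of means passed. At the CD24 loss step of Vgamma2+ cells the difference was 0.21 ± 0.15 (SE), with a 95% interval from -0.10 to 0.52 (limma adjusted p = 0.37). It passed without Vgamma2+ CD24+CD73+ replicate 2 (0.37, adjusted p = 0.0458). At CD24-CD73+ the difference between the subsets was -0.26 ± 0.15, with an interval from -0.57 to 0.05 (adjusted p = 0.335).

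Set beside all tested genes, the members' calls fell in these comparisons. In Vgamma2+ cells 3 of 4 members rose and 0 fell at the CD24 loss step, while 10.3% of all tested genes rose and 9.91% fell. The members' median difference there was 1.07 and that of all genes 0.02. At the same step of Vgamma1.1+ cells no member passed, with 4.28% of all genes higher and 6.92% lower. At the CD73 gain step 1 of 4 members, Cish, rose in each subset, against 4.37% of all genes higher and 3.45% lower in Vgamma1.1+ cells and 5.82% higher and 6.41% lower in Vgamma2+ cells. Over the whole course 1 member rose in Vgamma1.1+ cells, where 9.71% of all genes did, and 3 rose in Vgamma2+ cells, where 11.1% did.

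Between the subsets, no member passed at CD24+CD73-, where 2.05% of all genes did, or at CD24+CD73+, where 0.0117% did. At CD24-CD73+ 3 of 4 members were lower in Vgamma1.1+ than in Vgamma2+ cells, with 5.72% of all genes lower and 5.79% higher. The median difference was -0.90 for the members and 0.01 for all genes. The CD73 gain steps differed between the subsets for no member and for 0.0936% of all genes. The CD24 loss step was lower in Vgamma1.1+ cells for 2 members, Socs2 and Cish, and for 3.23% of all genes. The whole course was lower there for the same 2 members and for 2.48% of all genes. Socs2 and Socs3 passed the filter through their high group, so these counts describe the members and support nothing further.

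**Figure D3:**
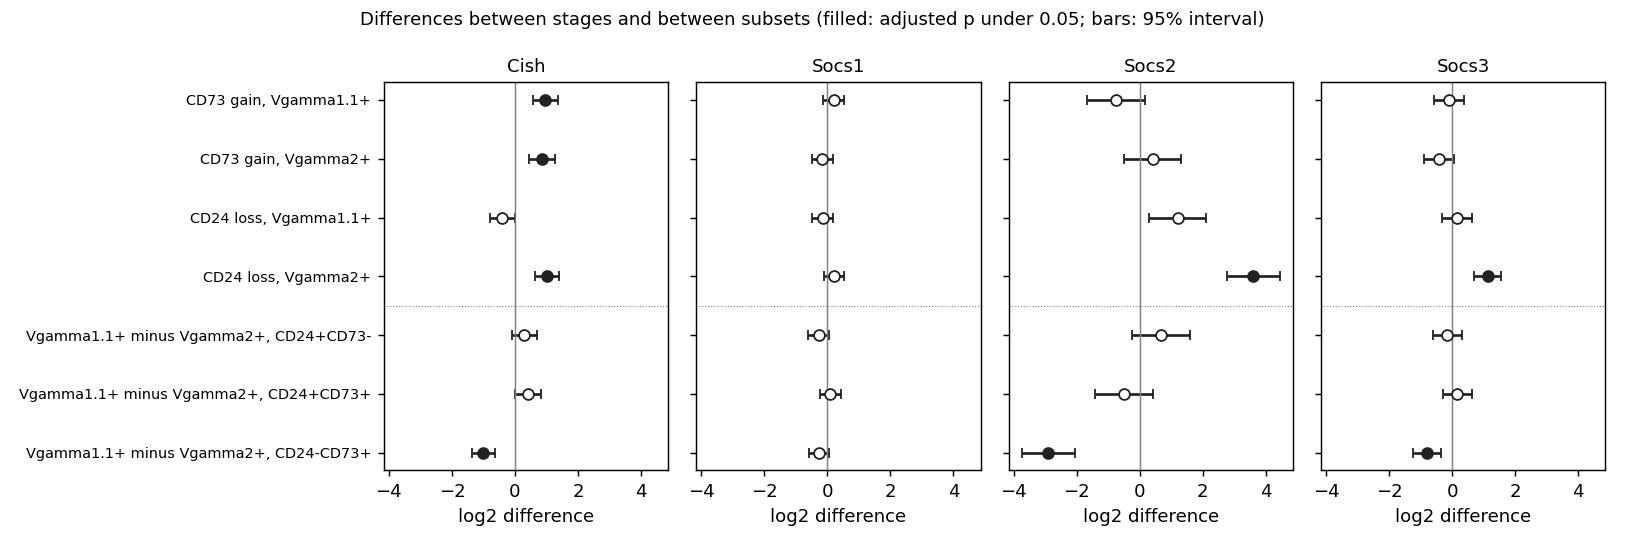
Log2 differences (horizontal axes) of Cish, Socs1, Socs2 and Socs3 for 4 steps between stages and 3 comparisons of Vgamma1.1+ minus Vgamma2+ cells; points are differences from limma, bars are 95% intervals, and filled points passed at an adjusted p under 0.05. Filled points for Socs2 and Socs3 lie at the CD24 loss step of Vgamma2+ cells and at the CD24-CD73+ comparison, Cish adds both CD73 gain steps, and Socs1 has none.

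Without the narrow pair of arrays the CD24 loss step of Vgamma2+ cells was 3.88 for Socs2, 1.02 for Socs3 and 0.89 for Cish. At CD24-CD73+ the difference between the subsets was then -2.63 for Socs2, -0.94 for Socs3 and -1.02 for Cish, and each of these 6 values passed (largest limma adjusted p = 0.00301).

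The other SOCS family genes Socs4, Socs5, Socs6 and Socs7 did not pass at the CD24 loss step of either subset, at either CD73 gain step or between the subsets at CD24-CD73+. Their differences at the CD24 loss step of Vgamma2+ cells were 0.33, 0.15, -0.24 and -0.05, with a median of 0.05. Over the whole course of Vgamma2+ cells 1 of the 4, Socs7, was lower (-0.46 ± 0.14, limma adjusted p = 0.017), as were 1106 of 8545 tested genes. The SOCS box partners, which form the ubiquitin ligase, had 4 genes listed, all tested, and 0 passed in the same comparisons. Of all tested genes 10.3% rose and 9.91% fell at the CD24 loss step of Vgamma2+ cells. In Vgamma1.1+ cells these shares were 4.28% and 6.92%. At the CD73 gain step they were 4.37% and 3.45% in Vgamma1.1+ and 5.82% and 6.41% in Vgamma2+ cells. Between the subsets at CD24-CD73+ 5.79% were higher and 5.72% lower. Beside such shares, 0 of 4 sets neither list apart from all tested genes.

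Of receptor chains that signal through Janus kinases, 17 of 27 listed were tested. At the CD24 loss step of Vgamma2+ cells 9 of the 17 were higher and 2 lower, beside 10.3% of all tested genes higher and 9.91% lower, with a median difference of 0.40 (0.02 for all genes). Il23r, a receptor chain for interleukin 23, had a mean log2 level of 9.27 ± 0.28 in CD24-CD73+ cells and 2.59 ± 0.47 in CD24+CD73+ cells (SD, n = 4 each), a rise of 6.67 ± 0.26 (SE; limma adjusted p = 9.46e-14). Il23r was above the table's median on CD24-CD73+ arrays only, so it entered the tests through the stage where it is high and had to differ. Its calls in both subsets add nothing to the levels. Il2ra, the alpha chain of the interleukin 2 receptor, rose by 2.53 ± 0.18 (adjusted p = 1.44e-09). The chains that fell were Il6st, which encodes gp130 (-1.18 ± 0.17, adjusted p = 1.72e-05), and Il10ra (-0.64 ± 0.10, adjusted p = 7.79e-05).

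In Vgamma1.1+ cells the CD24 loss step had 3 chains higher and 3 lower, beside 4.28% of all tested genes higher and 6.92% lower. Il23r rose there by 1.99 ± 0.28 (limma adjusted p = 4.29e-05) and Il7r, the interleukin 7 receptor chain, by 0.74 ± 0.17 (adjusted p = 0.00655), while Il6st fell by 1.50 on the log2 scale (adjusted p = 5.96e-06). Between the subsets at CD24-CD73+, 6 chains were lower in Vgamma1.1+ than in Vgamma2+ cells and 0 were higher. Of all tested genes 5.72% were lower and 5.79% higher. Il23r differed by -4.90 ± 0.26 (adjusted p = 2.29e-11) and Il2ra by -2.30 ± 0.18 (adjusted p = 8.41e-09). At the CD73 gain step 2 chains were higher and 4 lower in Vgamma1.1+ cells, and 4 higher and 4 lower in Vgamma2+ cells. Of all tested genes 4.37% were higher and 3.45% lower in Vgamma1.1+ cells, and 5.82% higher and 6.41% lower in Vgamma2+ cells. Il7r rose in both, by 0.98 ± 0.17 in Vgamma1.1+ cells (adjusted p = 0.000658) and by 1.68 ± 0.17 in Vgamma2+ cells (adjusted p = 5.54e-07).

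Kinases and STAT factors are the next links of the pathway. Of 3 Janus kinases tested (4 listed), Jak2 fell by 0.39 on the log2 scale at the CD24 loss step of Vgamma2+ cells (limma adjusted p = 0.0255), and none passed between the subsets at CD24-CD73+. Of 6 STAT factors tested (7 listed), Stat2 rose by 0.45 (adjusted p = 0.016) and Stat5b fell by 0.47 (adjusted p = 0.00654) at that step. Of all tested genes 10.3% rose and 9.91% fell at the same step. Stat4, which signals from the interleukin 12 receptor, averaged 6.99 ± 0.25 in Vgamma1.1+ and 7.97 ± 0.21 in Vgamma2+ cells at CD24-CD73+ (SD, n = 4 each). Its difference was -0.98 ± 0.13 (SE; limma adjusted p = 2.49e-05).

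**Figure D4:**
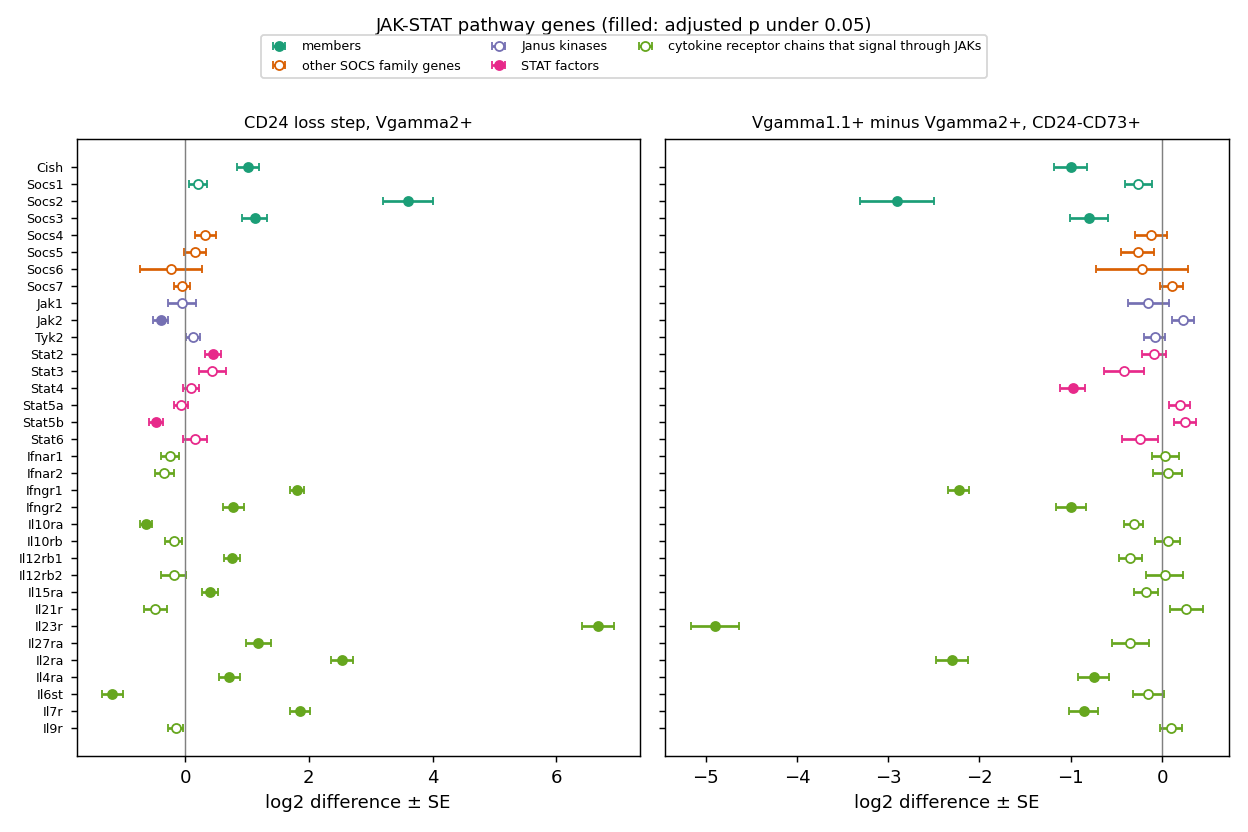
Log2 difference ± SE (horizontal axes) of the members, the other SOCS family genes, the Janus kinases, the STAT factors and the receptor chains, at the CD24 loss step of Vgamma2+ cells and for Vgamma1.1+ minus Vgamma2+ cells at CD24-CD73+; filled points passed limma at an adjusted p under 0.05. Il23r has the widest difference in both panels (6.67 and -4.90), and the points of Socs4 to Socs7 are all open.

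Among 5 tested cytokine genes (15 listed), 3 were higher in Vgamma1.1+ than in Vgamma2+ cells at CD24-CD73+ and 1 was lower. Of all tested genes 5.79% were higher and 5.72% lower. Il4, the type 2 cytokine, had a mean level of 8.48 ± 0.41 in Vgamma1.1+ and 4.56 ± 0.30 in Vgamma2+ cells (SD, n = 4 each), a difference of 3.92 ± 0.22 (SE; limma adjusted p = 3.08e-11). Il13 differed by 2.06 ± 0.25 (adjusted p = 4.89e-06), Il21 by 1.88 ± 0.16 (adjusted p = 2.35e-08) and Il15 by -1.39 ± 0.18 (adjusted p = 1.09e-05). Il21 was above the table's median in CD24-CD73+ Vgamma1.1+ cells alone and Il15 in CD24-CD73+ Vgamma2+ cells alone, so both entered the tests through their high group and had to differ. Of these 5 genes, 4 rose at the CD24 loss step in Vgamma1.1+ cells and 1, Il15, in Vgamma2+ cells (2.04 ± 0.18, adjusted p = 2.42e-08). Of all tested genes 4.28% rose at this step in Vgamma1.1+ cells and 10.3% in Vgamma2+ cells.

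Genes known as STAT5 responses had 11 of 14 members tested, and the list shares Il2ra with the receptor chains. At the CD24 loss step of Vgamma2+ cells the list median was 0.23 and that of all genes 0.02. There 3 rose and 0 fell, beside 10.3% of all tested genes higher and 9.91% lower. Besides Il2ra, those that rose were the kinase genes Pim1 (1.06 ± 0.24, limma adjusted p = 0.00298) and Pim2 (0.86 ± 0.20, adjusted p = 0.00346). Between the subsets at CD24-CD73+, 5 were lower in Vgamma1.1+ cells and 0 higher: Il2ra, Pim1 (-1.02 ± 0.24, adjusted p = 0.00661), Pim2, Prf1 and Mcl1. Of all tested genes 5.72% were lower and 5.79% higher in that comparison. At the CD24 loss step of Vgamma1.1+ cells 1 rose (Il2ra) and 2 fell (Bcl6 by 1.05 and Bcl2 by 0.75 on the log2 scale). There 4.28% of all tested genes were higher and 6.92% lower.

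Of all tested genes, 10.3% rose and 9.91% fell at the CD24 loss step of Vgamma2+ cells. In Vgamma1.1+ cells 4.28% rose and 6.92% fell at that step. Between the subsets at CD24-CD73+, 5.79% were higher and 5.72% lower in Vgamma1.1+ cells. Interferon response genes had 5 of 11 tested, and 2 rose at the CD24 loss step of Vgamma2+ cells, Gbp2 (1.26 ± 0.13, limma adjusted p = 3.36e-07) and Ifit1 (1.02 ± 0.31, adjusted p = 0.0206). In Vgamma1.1+ cells 2 rose as well, Gbp2 (0.87 ± 0.14, adjusted p = 0.000261) and Irf7 (0.56 ± 0.17, adjusted p = 0.0364), and 0 passed between the subsets at CD24-CD73+. Of 12 tested genes of the T-cell receptor response, 2 rose (Nfkbia and Junb) and 5 fell at the CD24 loss step of Vgamma2+ cells. Nr4a2 fell by 1.46 and Nr4a1 by 1.37 on the log2 scale there. In Vgamma1.1+ cells 4 fell and 0 rose at this step, with Nr4a1 down by 1.93 and Nr4a2 by 1.62, and at CD24-CD73+ 3 were higher in Vgamma1.1+ than in Vgamma2+ cells and 0 lower. Of 10 tested other inhibitors of the pathway, Pias4 rose by 0.30 (adjusted p = 0.0173) and Pias2 fell by 0.33 (adjusted p = 0.0478) at the CD24 loss step of Vgamma2+ cells.

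Markers of other cells were also read at CD24-CD73+ and at the CD24 loss step. The mean level of 4 B-cell genes was 4.17 to 4.67 on the CD24-CD73+ Vgamma1.1+ arrays and 4.75 to 4.96 on the CD24-CD73+ Vgamma2+ arrays. Cd79b alone among the 2 tested B-cell genes passed, by -1.64 ± 0.27 (limma adjusted p = 0.000183), and at the CD24 loss step it rose by 0.99 in Vgamma2+ cells and fell by 1.03 in Vgamma1.1+ cells. The B-cell genes Ms4a1 and Cd79a did not pass the filter. At CD24-CD73+, Ms4a1 ran from 2.03 to 3.00 in Vgamma1.1+ and from 2.06 to 2.77 in Vgamma2+ cells. Cd79a ran from 3.57 to 4.67 in Vgamma1.1+ and from 3.59 to 4.69 in Vgamma2+ cells. The mean of 6 myeloid and dendritic genes was 3.63 to 4.24 in Vgamma1.1+ and 3.92 to 4.45 in Vgamma2+ cells. Of 4 tested genes 1, C1qb, was lower in Vgamma1.1+ cells (-0.64 ± 0.20, limma adjusted p = 0.0379), beside 5.72% of all tested genes. Of the other marker lists, 1 of 3 tested alpha-beta lineage genes, Cd8b1, rose by 0.79 at the CD24 loss step of Vgamma2+ cells. Epcam, the 1 epithelial gene tested, fell there by 0.95, and 1 of 4 tested myeloid and dendritic genes, Cd68, fell by 0.63. In Vgamma1.1+ cells Cd8b1 rose by 1.18 and Epcam fell by 1.08. The alpha-beta genes Cd4 and Rag2 and the epithelial genes Foxn1, Krt5 and Psmb11 did not pass the filter. Of all tested genes 10.3% rose and 9.91% fell at this step in Vgamma2+ cells. In Vgamma1.1+ cells 4.28% rose and 6.92% fell. The part of such other cell types in the members' differences was not tested.

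Genes whose levels ran most like a member's over the 22 arrays are given as a description, since arrays of 1 group share their cells. For Socs2 they were Tmem176a (Pearson r = 0.935), Septin8 (0.933), Il23r (0.932), Scpep1 (0.927) and Bhlhe40 (0.924). For Socs3 they were Derl3 (0.925), Dkkl1 (0.885), F2rl2 (0.849), Pltp (0.846) and Tmem176b (0.843). For Cish they were Cdc14b (0.914), Sgk1 (0.908), Hgsnat (0.904), Glipr2 (0.903) and Jaml (0.899). Socs1 had the lowest values, with Vat1 (0.733), Klf16 (0.732), Prr36 (0.731), Sox9 (0.712) and Fstl3 (0.695).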

How the data were processed

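The deposited values are log2 expression levels made by the authors with RMA in the oligo package, per the submitters' processing notes (their versions are not given in the sources used here). Per the labels, total RNA was extracted with Trizol and labelled with biotin for 1-colour arrays. Of 16755 probe sets, 14996 list 1 gene symbol, 1019 list several and 740 list none; those with 1 symbol gave 14860 genes, each by its probe set of highest mean. A RefSeq table matched 14805 genes by gene ID, and 0 symbols differed.

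A gene was tested if it exceeded the median of the table (4.55) on at least 3 arrays. Limma 3.58.1 in R 4.3.3 fitted 6 group means to 22 arrays with empirical Bayes (prior degrees of freedom 4.47). Two-sided tests used Benjamini-Hochberg adjustment over 8545 genes per contrast and a threshold of 0.05. The code of the fits was run on simulated independent normal values. These lack the unequal spreads and the correlated deviations of the real arrays, so that run checks the code only.

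Named are the members, the other SOCS genes, Nt5e, up to 4 genes per list and contrast past the threshold (2 per direction, by size) and the 5 genes most alike to each member. Pim2, Prf1, Mcl1 and Il21, the array values, and the markers Cd79a, Ms4a1, Cd79b, C1qb, Cd8a, Cd8b1, H2-Aa, Epcam and Cd68 were chosen after values were seen. The members and lists were chosen with earlier results of these data known. Alternatives covered the replicate block, the filter, the fit, weights, normalization, probe set and arrays left out.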

Additional observations from a re-analysis of the deposited data

Results flagged for a closer look

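One array stood far from its group. The Socs2 level of the Vgamma1.1+ CD24-CD73+ replicate 1 array was 2.99, and the nearest of its group was 4.00; this array also has the narrowest spread of all log2 values. It was 1 of 16 groups of 4 arrays checked over the members, and chance alone gives about 1 in 20. Differences between the subsets also stood out for 2 genes, tested as interaction terms in limma. The CD24 loss step, Vgamma1.1+ minus Vgamma2+, differed by -2.41 for Socs2 (adjusted p = 0.0203; 0.0524 with the replicate block, and up to 0.0708 with 1 array left out) and by -1.41 for Cish (adjusted p = 0.00193). The whole course differed by -3.58 for Socs2 (adjusted p = 0.000642) and by -1.30 for Cish (adjusted p = 0.00436). Socs2 passed the filter through its high group, so its calls add nothing to the levels.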

How the results depend on the processing

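Over 52 results (19 past the threshold), 450 of 464 values under other settings and 1127 of 1144 with 1 array left out stayed on the same side of the threshold, and 0 of the results past it changed sign. Array weights brought the most past it: Socs1 between the subsets at CD24+CD73- (-0.38), Socs2 and Cish at the CD24 loss step of Vgamma1.1+ cells (1.67 and -0.57), Socs2 over the whole course of Vgamma1.1+ cells (0.95), the difference of CD24 loss steps and of whole courses for Socs3 (-1.41 and -1.08) and the F statistic of Socs1 (3.17). The Socs3 difference of CD24 loss steps also passed with cyclic loess (-1.12), with each array's spread as a covariate (-1.11) and by the other probe set (-2.56), as did its difference of whole courses by that probe set (-1.97). Socs2 passed at the CD24 loss step of Vgamma1.1+ cells without the 2 arrays of narrowest spread (1.47). With only the groups of the contrast, the Socs3 difference between the subsets at CD24-CD73+ (-0.80) lost its call. The replicate block took the call from the Socs2 difference of CD24 loss steps (-2.40, limma adjusted p = 0.0524) and changed no other call of a member. Deviations from the group means were correlated between arrays of different groups. The 51 same-number pairs had r from -0.67 to 0.56, with a median of -0.16 and 6 over 0.1. The 150 different-number pairs had a median of 0.04 and 65 over 0.1. Of 22 arrays, 2 correlated best with their own number. The labels do not say whether samples of the same number share animals, and these values cannot settle it. Under the stricter filter (5.46) Socs3 was not tested. The causes of these changes were not tested.

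With 1 array left out, the values ran from 0.50 to 0.66 for Cish over the whole course of Vgamma1.1+ cells and from 0.64 to 1.02 at its CD73 gain step in Vgamma2+ cells. Those of Socs2 ran from 0.88 to 1.47 at the CD24 loss step of Vgamma1.1+ cells and from -2.73 to -2.07 for the difference of CD24 loss steps. Those of Socs3 ran from -0.98 to -0.64 between the subsets at CD24-CD73+, from -1.15 to -0.81 for the difference of CD24 loss steps and from 0.55 to 0.89 over the whole course of Vgamma2+ cells. That whole course (0.70 in full) lost its call without Vgamma2+ CD24+CD73- replicate 1 or 2 or CD24-CD73+ replicate 2 or 4 (adjusted p = 0.0582, 0.121, 0.0966 and 0.0941). Socs1 ran from 0.13 to 0.37 at the CD24 loss step of Vgamma2+ cells. The number of all genes called then ran from 765 to 1186 between the subsets at CD24-CD73+ (984 in full). For the difference of CD24 loss steps it ran from 265 to 578 (432 in full). At the CD24 loss step of Vgamma2+ cells it ran from 1410 to 2078 (1725 in full). Under the other settings, with no such array left out, these 3 ranges were 466 to 1827, 236 to 1057 and 1164 to 2440. Signal near the lower end of the arrays limits Socs2 and Socs3, which stayed under the table's median outside CD24-CD73+ Vgamma2+ cells.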
